A study of Mus musculus with 12 samples.

Results

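Beta-defensins are short, cationic, secreted peptides that kill microbes by disturbing their membranes, and in skin they belong to the barrier that keratinocytes maintain. Their genes arose by repeated duplication and lie in clusters, and a large part of the mouse family is known for expression in the male reproductive tract, where the peptides bind sperm. Trimethylation of histone H3 at lysine 27 (H3K27me3) is a mark of Polycomb repression that often covers silent genes in wide domains, and Utx (Kdm6a) is an enzyme that can remove it.

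The members were all RefSeq protein-coding genes of GRCm38 whose symbol is Defb followed by digits. There were 42 of them among 21631 protein-coding genes on chromosomes 1 to 19 and X, and all were autosomal. Members less than 1 Mb apart were taken as a cluster, which gave 5 clusters. These ran from Defb18 to Defb41 on chromosome 1 (2 genes), from Defb23 to Defb25 on chromosome 2 (11 genes), from Defb40 to Defb7 on chromosome 8 (14 genes), from Defb33 to Defb13 on chromosome 8 (10 genes) and from Defb48 to Defb42 on chromosome 14 (5 genes). The chromosome 8 genes formed separate clusters because a gap of 1.39 Mb separated Defb7 from Defb33.

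H3K27me3 was mapped in epidermal cell suspensions of female mice by CUT&RUN, an assay in which a nuclease tethered to an antibody cuts loose the chromatin that carries the mark. Utx-cKO animals carried Cre and floxed Utx alleles (Cre+; Utx fl/fl), with Cre driven by the keratin 14 promoter, and WT animals carried the same floxed alleles without Cre (Cre-; Utx fl/fl). Each genotype had 3 H3K27me3 and 3 IgG libraries. The sources used here give no age, and cells in which Krt14-Cre is not active keep Utx. The values analysed were 1 list of peaks per genotype, called by the authors on the pooled H3K27me3 data of its animals, with 8914 peaks in Utx-cKO and 7826 in WT. No value below has a replicate error or a test, sequencing depth is unknown, and the signals are ranked only within a list. Ranks and percentiles run over all peaks of a list, of which 7033 in Utx-cKO and 6126 in WT are autosomal. The median width was 16500 bp over all Utx-cKO peaks and 15500 bp over the autosomal ones. In WT these medians were 17950 bp and 16800 bp. In the peak lists, none of 9 keratinocyte markers (such as Krt5, Krt14 and Krt10) had a peak within the gene or 2 kb of it in either genotype. All 5 T cell and Langerhans cell markers had one in both, as did 1 of 4 melanocyte markers (Dct) and 2 of 3 fibroblast markers, while 0 of 2 endothelial markers and 0 of 4 epididymis genes had one in either.

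A gene was called marked where a peak overlapped its body or the 2 kb on either side by at least 1 bp. By this rule 7 of the 42 beta-defensin genes (16.7%) were marked in Utx-cKO, against 17.6% of all 20665 autosomal protein-coding genes in that list. In WT 5 of 42 (11.9%) were marked, against 16.1% of all autosomal genes. In both lists 4 members were marked (14.6% of all genes), in Utx-cKO alone 3 members (3.0% of all genes) and in WT alone 1 member (1.49% of all genes). Beta-defensin genes are short, with a median length of 3.21 kb and a range of 0.698 to 35.1 kb. Among autosomal genes no longer than the longest member, 13.3% carried a peak in the Utx-cKO list and 11.9% in the WT list, and among those no longer than the median member 9.12% in Utx-cKO and 8.30% in WT. Which background the family is read against thus decides whether its share lies above or below that of other genes. The marked members shared 4 peaks in Utx-cKO and 3 peaks in WT, so they are not independent counts.

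Marked members lay in 2 of the 5 clusters, the same ones in both genotypes. Chromosomes 2 and 14 were grouped because they hold the marked members, so their contrast with chromosomes 1 and 8 follows from that choice. Of the 16 genes on chromosomes 2 and 14, the Utx-cKO list marked 7 and the WT list 5. At least 1 list marked 8 of the 16. For comparison, both lists marked 14.6% of autosomal protein-coding genes, only the Utx-cKO list a further 3.0% and only the WT list a further 1.49%. Of the 26 genes on chromosomes 1 and 8, 0 were marked in either list. The nearest approach of a peak to any of those 26 genes was 85.4 kb in Utx-cKO and 27.6 kb in WT.

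**Figure D1:**
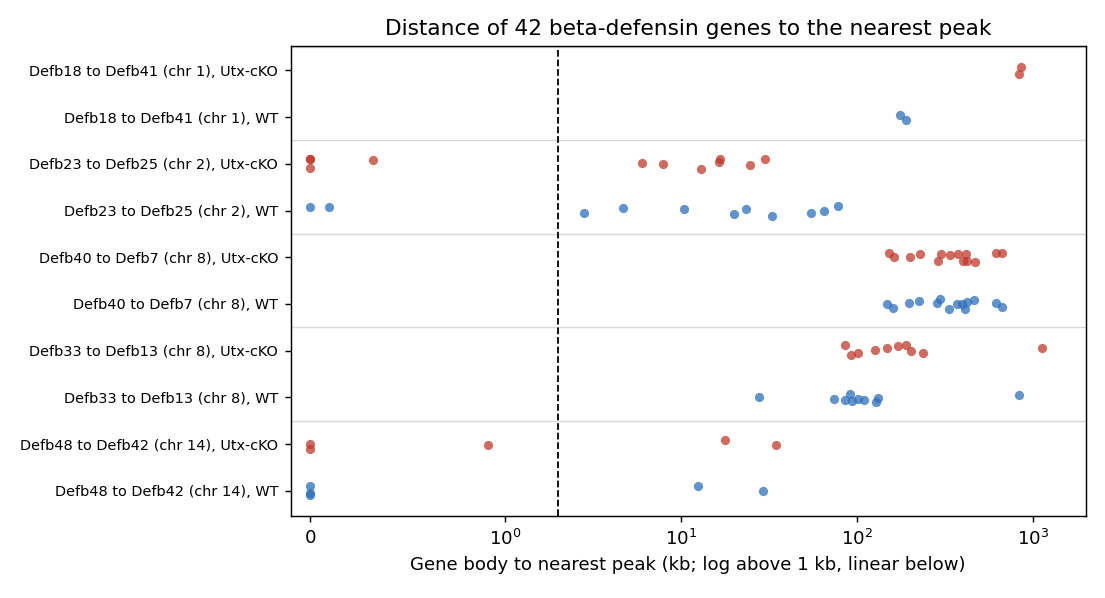
Distance in kb from each of the 42 beta-defensin genes to the nearest H3K27me3 peak, by cluster, with Utx-cKO in red and WT in blue. Each point is a gene, the axis is logarithmic above 1 kb, and the dashed line marks the limit of 2 kb. Points left of the line occur only in the rows of chromosomes 2 and 14.

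By length, peaks covered 27.7% of the chromosome 2 cluster span, taken with 2 kb on either side, in Utx-cKO and 18.2% in WT. They covered 39.2% of the chromosome 14 span in Utx-cKO and 46.3% in WT. The autosomes as a whole were covered over 5.60% in Utx-cKO and 5.17% in WT. In the span from Defb33 to Defb13 peaks covered 0% in Utx-cKO and 1.87% in WT, and in the other chromosome 8 span and that of chromosome 1 they covered 0% in both. Over all 5 spans together peaks covered 4.08% in Utx-cKO and 4.57% in WT, below the autosomes in each list. The coverage of the chromosome 2 span was higher in Utx-cKO and that of the chromosome 14 span lower, but with 50 kb on either side the chromosome 14 order turned round, with 40.1% in Utx-cKO and 30.6% in WT.

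**Figure D2:**
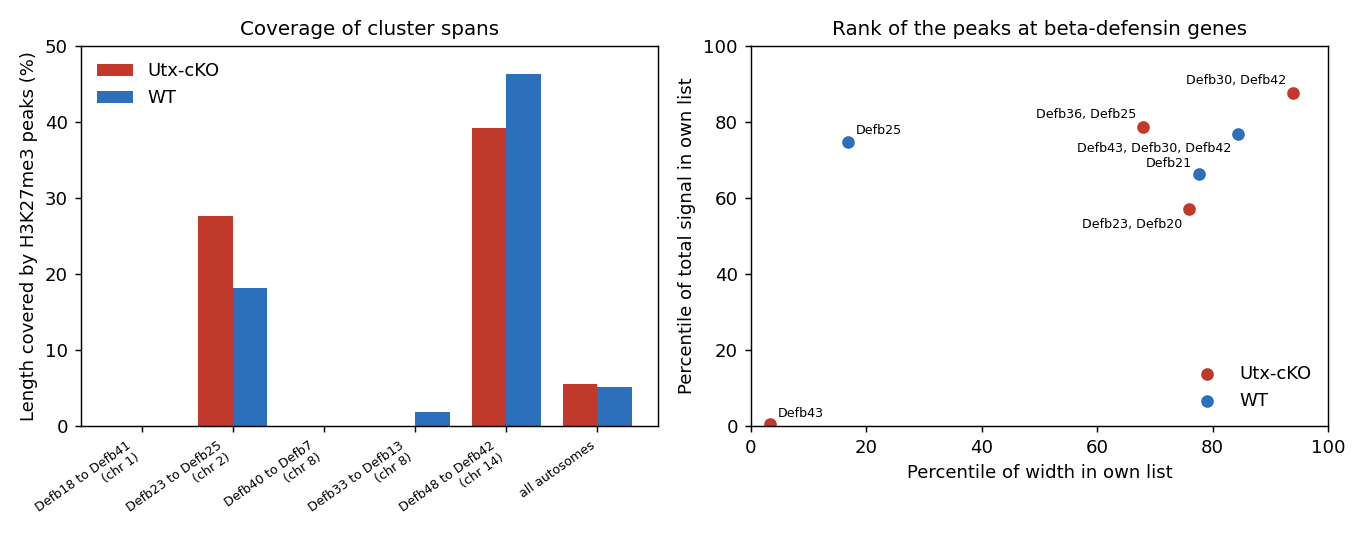
Left, percentage of each cluster span covered by H3K27me3 peaks in Utx-cKO (red) and WT (blue), with all autosomes for scale. Right, each peak at a beta-defensin gene placed by the percentile of its width and of its total signal in its own list. The chromosome 14 span reached 39.2% in Utx-cKO and 46.3% in WT, and the Utx-cKO peak at Defb43 stood at percentile 0.606 of total signal.

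On chromosome 14 the mark lay at the Defb43 to Defb42 end of the cluster in both genotypes. Defb30 and Defb42, of which Defb42 is known from the epididymis, lay in one domain in each list. Defb43, next to them, was marked in both lists by the 2 kb rule, but a peak overlapped its body in WT only. Defb48 and Defb47, at the other end, were marked in neither. The body of Defb30 (63034087 to 63037846) was covered by peaks over 100% in Utx-cKO and over 100% in WT. The body of Defb42 (63046991 to 63048606) was covered over 100% in Utx-cKO and over 87.3% in WT. For both genes the annotated transcription start lay inside the peak in each genotype.

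The starts of Defb30 and Defb42 are shown because both lists placed the mark over them. Their promoter windows, 250 bases before to 50 bases after the start, lie at chr14:63037797-63038096 on the minus strand for Defb30 and at chr14:63046741-63047040 on the plus strand for Defb42. The sequences are those of RefSeq for GRCm38.p6, 5′ to 3′ along the gene, and capitals mark CG dinucleotides, the bases that make up CpG islands.
Defb30: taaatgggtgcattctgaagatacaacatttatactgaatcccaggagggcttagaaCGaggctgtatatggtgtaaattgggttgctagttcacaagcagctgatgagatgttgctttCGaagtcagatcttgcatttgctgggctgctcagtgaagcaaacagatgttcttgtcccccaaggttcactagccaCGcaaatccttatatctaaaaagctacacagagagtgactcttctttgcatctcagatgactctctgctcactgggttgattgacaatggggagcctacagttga
Defb42: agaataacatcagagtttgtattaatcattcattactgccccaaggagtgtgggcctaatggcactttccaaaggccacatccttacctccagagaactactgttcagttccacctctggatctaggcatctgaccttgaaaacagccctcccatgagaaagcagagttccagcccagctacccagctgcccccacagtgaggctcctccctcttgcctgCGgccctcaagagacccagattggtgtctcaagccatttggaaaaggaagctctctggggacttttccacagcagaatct
The Defb30 window held 3 CG and the Defb42 window 1 CG.

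The domains over Defb30 and Defb42 ranked high by width. The Utx-cKO peak (chromosome 14, 63027851 to 63078300) was 50450 bp wide, rank 540 of 8914 by width, and had rank 1104 by total signal (percentile 87.6, the share of peaks in the list with an equal or lower value). Its maximum signal stood at percentile 63.4. The WT peak (63013601 to 63048400) was 34800 bp wide, rank 1220 of 7826 by width and 1805 by total signal (percentile 76.9), and its maximum signal stood at percentile 34.4. Both peaks thus ranked higher by width and total signal than by height. Of the Utx-cKO peak 71.6% was covered by WT peaks, and of the WT peak 78.3% was covered by Utx-cKO peaks.

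The place of the highest signal differed between the lists. In Utx-cKO it lay at 63070751 to 63070800, 22145 bp from Defb42, beside the noncoding gene Gm35908. In WT it lay at 63041151 to 63042400, between Defb30 and Defb42 and 3305 bp from Defb30. The WT list had a second peak over Gm35908 (63062751 to 63080300), which the wider Utx-cKO peak joined with the defensin part. The noncoding gene 2700070H01Rik, between them, was covered over 100% in Utx-cKO and over 0% in WT.

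At Defb43 (63011771 to 63018088) the lists differed in extent. In Utx-cKO the gene body was covered over 0%, and a separate peak of 6700 bp (63019001 to 63025700) began 913 bp beyond the gene. That peak was among the weakest of its list, with rank 8861 of 8914 by total signal (percentile 0.606), and 100% of it was covered by the WT domain. In WT 71.0% of the gene body lay in the domain, whose border lay 1830 bp downstream of the annotated start. The call at Defb43 in Utx-cKO ended when Utx-cKO peaks weaker than the weakest WT peak by total signal were left out. Defb47 lay 17.8 kb from the nearest peak in Utx-cKO and 12.4 kb in WT, and Defb48 34.5 kb and 29.1 kb.

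**Figure D3:**
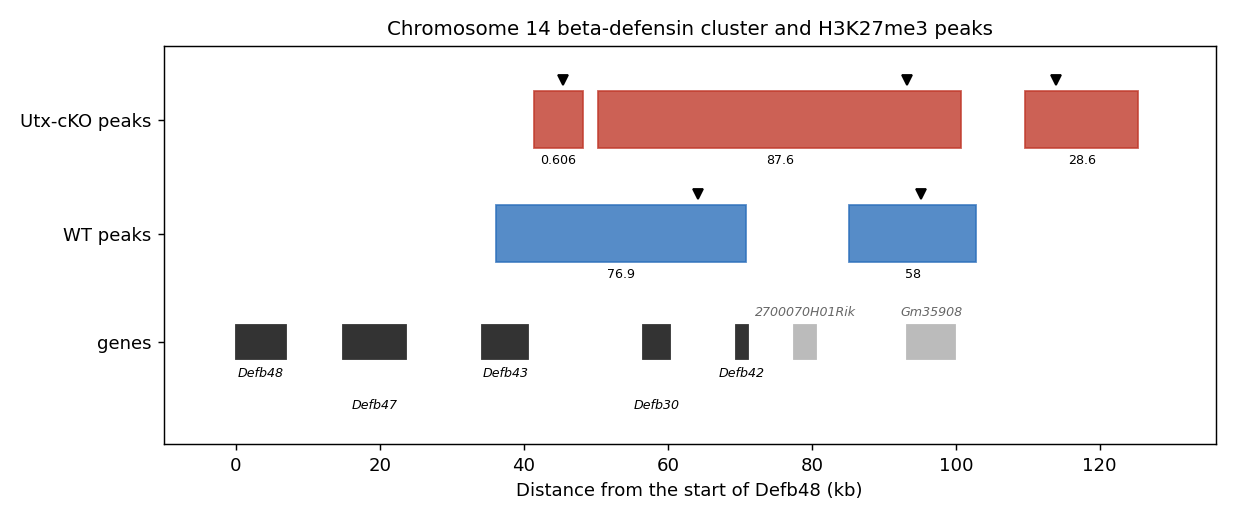
H3K27me3 peaks over the chromosome 14 cluster in Utx-cKO (red) and WT (blue), with beta-defensin genes in black and noncoding neighbours in grey, by distance in kb from the start of Defb48. Triangles mark the place of highest signal, and numbers under the peaks give the percentile of total signal in the own list. Peaks of both lists span Defb30 and overlap Defb42, and none reaches Defb47 or Defb48.

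On chromosome 2 the Utx-cKO peaks fell on both ends and on the middle of the cluster. The WT peaks fell on the middle and at the Defb25 end, and the lists called partly different members. Defb23, Defb20 and Defb36 were marked in Utx-cKO alone, Defb21 in WT alone and Defb25 in both. The other 6 genes, namely Defb22, Defb26, Defb28, Defb29, Defb19 and Defb45, were marked in neither. Defb22 is known for the sperm coat, and Defb23 and Defb26 are known from mouse knockouts with effects on sperm.

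The clearest difference was at Defb23 and Defb20. A Utx-cKO peak (chromosome 2, 152452351 to 152477800) covered 100% of the body of Defb23 (152459055 to 152464620) and 25.7% of that of Defb20 (152477063 to 152479934), including both annotated starts. It was 25450 bp wide, rank 2149 of 8914 by width and 3835 by total signal (percentile 57.0). Its highest signal lay within Defb23, which was the case for no other peak at a member. The WT list had no peak over it, with 0% covered, also when WT peaks were extended by 5 kb. The nearest WT peak was 77.8 kb from Defb23 and 64.8 kb from Defb20. Since each list pools its animals, the spread of this domain between animals was not analysed here.

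At Defb21 (152572743 to 152574944) the lists shared a domain but not its border. The Utx-cKO peak (152546001 to 152559750) was 13750 bp wide, stood at percentile 48.2 of total signal and ended 13.0 kb short of the gene. The WT peak (152544701 to 152573300) was 28600 bp wide, at percentile 66.3, and covered 25.3% of the body of Defb21. It included the first of its annotated starts and ended 448 bp before the other. The place of highest signal began at 152553101 in both lists, within the noncoding gene Gm14161, which was covered over 44.3% in Utx-cKO and over 100% in WT. The Utx-cKO peak lay entirely within the WT peak. Defb29 and Defb19, on either side of that domain, were 5.96 kb and 16.3 kb from a Utx-cKO peak and 4.66 kb and 2.79 kb from a WT peak.

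The starts of Defb23, Defb20 and Defb21 are shown because each lay in a peak of 1 list only. The windows are at chr2:152464571-152464870 on the minus strand for Defb23, at chr2:152476813-152477112 on the plus strand for Defb20 and, for the first start of Defb21, at chr2:152572493-152572792 on the plus strand. Capitals again mark CG.
Defb23: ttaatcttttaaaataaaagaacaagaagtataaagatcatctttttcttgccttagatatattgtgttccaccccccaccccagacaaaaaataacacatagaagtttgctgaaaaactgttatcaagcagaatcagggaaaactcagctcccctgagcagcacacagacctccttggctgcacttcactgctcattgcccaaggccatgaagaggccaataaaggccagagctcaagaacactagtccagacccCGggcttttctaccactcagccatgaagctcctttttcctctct
Defb20: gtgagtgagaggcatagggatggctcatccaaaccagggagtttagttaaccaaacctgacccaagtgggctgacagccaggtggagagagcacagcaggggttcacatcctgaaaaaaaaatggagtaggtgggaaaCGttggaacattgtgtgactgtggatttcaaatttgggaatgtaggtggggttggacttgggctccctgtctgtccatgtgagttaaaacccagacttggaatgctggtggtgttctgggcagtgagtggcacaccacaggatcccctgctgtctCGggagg
Defb21: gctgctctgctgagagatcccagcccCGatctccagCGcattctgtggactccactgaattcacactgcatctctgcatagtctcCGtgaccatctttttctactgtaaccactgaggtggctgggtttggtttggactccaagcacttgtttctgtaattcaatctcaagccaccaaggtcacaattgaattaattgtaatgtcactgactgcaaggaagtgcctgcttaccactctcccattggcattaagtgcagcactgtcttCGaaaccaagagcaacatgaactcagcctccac
The windows held 1 CG at Defb23, 2 at Defb20 and 4 at Defb21.

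At the far end of the cluster, Defb25 and Defb36 lay in or next to a domain over Rem1, which encodes a small GTPase of the RGK family. The Utx-cKO peak (152613051 to 152634600) was 21550 bp wide, at percentile 78.6 of total signal and 92.4 of maximum signal. It contained 100% of Defb25 (152622356 to 152623053) and began 322 bp beyond the end of Defb36 (152604327 to 152612729), 8724 bp from its start. The WT peak (152623151 to 152634600) was 11450 bp wide, at percentile 74.8 of total signal and 92.8 of maximum signal, and began 98 bp beyond Defb25. The WT peak lay entirely within the Utx-cKO peak, of which it covered 53.1%. The highest signal lay 4798 bp from Defb25 in Utx-cKO and 3498 bp from it in WT. Rem1 was covered over 92.8% in each. In neither list did the highest signal of this domain fall on a member.

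**Figure D4:**
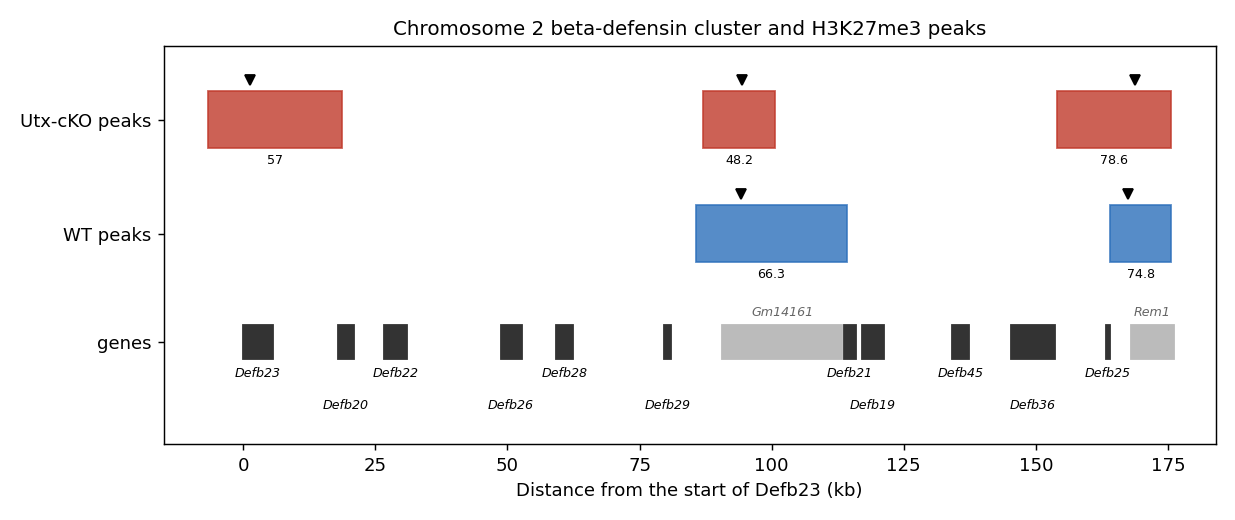
H3K27me3 peaks over the chromosome 2 cluster in Utx-cKO (red) and WT (blue), with beta-defensin genes in black and the neighbours Gm14161 and Rem1 in grey, by distance in kb from the start of Defb23. Triangles mark the place of highest signal, and numbers under the peaks give the percentile of total signal in the own list. The Utx-cKO peak over Defb23 and Defb20 has no WT counterpart, while the other Utx-cKO peaks overlap WT peaks.

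On chromosome 8, which holds the beta-defensins known from skin and other epithelia, no member carried a peak. These include Defb1, known for steady expression in epithelia, and Defb3, Defb4 and Defb14, known to be induced by microbes and inflammation. In Utx-cKO the nearest peak lay 239 kb from Defb1, 471 kb from Defb3, 376 kb from Defb4, 337 kb from Defb14 and 191 kb from Defb2. In WT it lay 27.6 kb from Defb1, 467 kb from Defb3, 372 kb from Defb4, 334 kb from Defb14 and 90.9 kb from Defb2. Over the Defb40 to Defb7 cluster the distances ran from 152 to 672 kb in Utx-cKO and from 148 to 669 kb in WT. Over the Defb33 to Defb13 cluster they ran from 85.4 to 1136 kb in Utx-cKO and from 27.6 to 831 kb in WT. The member nearest to a peak in these clusters was Defb40 in the first, and in the second Defb13 in Utx-cKO and Defb1 in WT. Spag11a and Spag11b, sperm-associated genes that lie among the defensins, were covered over 0% in both lists. Eppin, listed with them as beta-defensin-like but located on chromosome 2, was marked in both lists by peaks shared with Wfdc genes.

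The whole region was free of peaks in Utx-cKO. From 18822751 to 22034000 that list had no peak over 3.21 Mb, an interval with 68 protein-coding genes, among them all 24 beta-defensins of the chromosome and all 28 genes of the related alpha-defensin family, which are known from Paneth cells of the gut. Of 7014 intervals between neighbouring autosomal peaks in that list, 103 (1.47%) were as long and 12 (0.171%) held as many protein-coding genes. The WT list was free of peaks from 18826551 to 21729150 (2.90 Mb, 56 protein-coding genes), and of 6107 intervals 131 (2.15%) were as long and 26 (0.426%) held as many. The defensin genes here are duplicated copies, so these gene counts are not counts of independent genes. The WT interval ended at a peak of 19850 bp (21729151 to 21749000) over the alpha-defensin Defa24, at percentile 36.3 of total signal and 18.3 of maximum signal, which overlapped no Utx-cKO peak. The lists hold peaks only, and whether reads could be placed uniquely among these copies was not tested, so a gene without a peak is only a gene for which none was called.

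**Figure D5:**
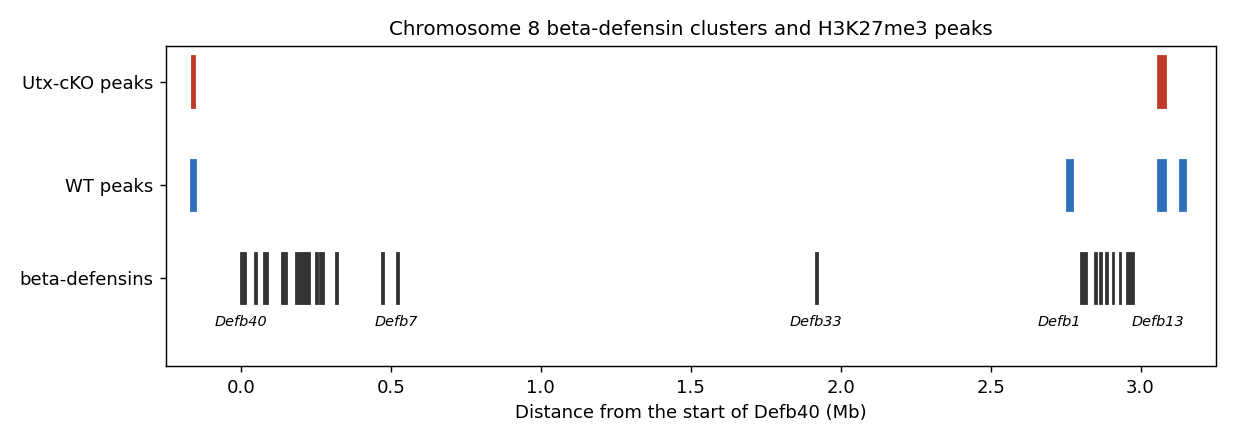
H3K27me3 peaks around the chromosome 8 clusters in Utx-cKO (red) and WT (blue) with beta-defensin genes in black, by distance in Mb from the start of Defb40. The Utx-cKO list has no peak across both clusters, and the WT list has 1, left of Defb1.

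On chromosome 1, Defb18 and Defb41, of which Defb41 is known from the epididymis, also lay far from peaks. The distances were 860 kb and 833 kb in Utx-cKO and 175 kb and 190.0 kb in WT. The WT peak closest to them (18054151 to 18060950) was 6800 bp wide, at percentile 41.0 of total signal, and overlapped no Utx-cKO peak.

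The promoters at hand for the family are poor in CG, whether marked or not. RefSeq promoter windows were at hand for 29 of the 42 members, 30 windows in all. Members without a window include Defb1, Defb2, Defb4, Defb14 and the marked Defb25. They held a median of 1.5 CG per 300 bases, with a highest value of 8, against a median of 14 over the 20085 windows of autosomal protein-coding genes. The 5 member windows that lay in a peak of either list held 1 to 4 CG (median 2), and the other 25 held 0 to 8 (median 1). Over all autosomal genes the windows in a peak held a median of 13 CG in Utx-cKO and 13 in WT. The marked member windows thus held fewer CG than the median marked promoter, as did the member windows as a whole. Among all 8035 autosomal windows with at most 8 CG, 8.94% lay in a Utx-cKO peak and 8.53% in a WT peak. Over all windows these shares were 9.37% and 8.99%, so marked windows with few CG are not particular to this family. By promoter window, the mark covered 4 of 29 members in Utx-cKO (9.78% of 16457 autosomal genes) and 3 of 29 in WT (9.28%).

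The letters TATAAA, on either strand, occurred in 5 of the 30 member windows, against 12.7% of all autosomal windows. Among all windows with at most 8 CG the share was 23.4%. The 5 were those of the marked Defb30 and Defb23 and of Defb7, Defb15 and Defb48, which were marked in neither list. The letters TGANTCA, the pattern of AP-1 sites, occurred in 2 of 30, at Defb26 and Defb11. They occurred in 7.06% of all windows and in 11.7% of those with at most 8 CG. A CG occurred in 24 of 30, against 95.6% of all windows and 89.0% of those with at most 8 CG. Neither of the longer patterns contains the other or a CG. A match is a run of letters and not a bound site.

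Other genes of antimicrobial defence were counted by the same rule, which marked 17.6% of all autosomal protein-coding genes in Utx-cKO and 16.1% in WT. Wfdc2 and Wfdc12, counted here, are also among the Wfdc genes counted further below. Of 26 epithelial antimicrobial protein genes, the Utx-cKO list marked 6 (23.1%) and the WT list 4 (15.4%). S100a9, a subunit of calprotectin, Slpi, a protease inhibitor, Wfdc2 and Nos2, the inducible nitric oxide synthase, were marked in both, and Wfdc12 and Lyz1, a lysozyme, in Utx-cKO alone. Of 19 genes of beta-defensin reception and induction, the Utx-cKO list marked 3 and the WT list 2. The cytokine gene Il17a and the melanocortin receptor gene Mc1r were marked in both, and Ccr6, a chemokine receptor through which beta-defensins attract cells, in Utx-cKO alone. The Ccr6 peak (chromosome 17, 8227651 to 8238900) stood at percentile 17.1 of its list. Of the 28 alpha-defensins, the Utx-cKO list marked 0 and the WT list 1 (3.57%), Defa24.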

How the data were processed

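H3K27me3 and IgG CUT&RUN libraries came from 6 female animals, 3 per genotype, and were grouped by the genotype in the labels. Per the file headers, the authors called peaks with SEACR (spelled SECAR there) on data merged over the samples of a group. Each peak's deposited score is its total signal (coverage summed over the peak), beside which the authors' list gives its maximum signal (highest coverage). The columns carry no names and were read in the order in which SEACR writes them. The sources used here give neither the scale of the coverage nor the caller's mode and threshold. The submitters' processing notes name mm10 (GRCm38) and sacCer3 as builds, and bedtools 2.27.1, deepTools, SAMtools 1.9 and Bowtie2 2.3.4.3 as tools. Peak borders lie on a 50 bp grid.

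Genes came from RefSeq GRCm38.p6, and transcription starts and strand from its promoter windows. Overlaps, distances, covered lengths and ranks were computed with Python 3.11.15, pandas 2.3.3 and numpy 2.4.6, and the overlap code was tested on simulated data. Named are all marked members, Defb1, Defb2, Defb3, Defb4 and Defb14, the unmarked member nearest to a peak in each cluster, genes that share a peak with a member, and up to 4 marked genes per comparison list; Wfdc12, Lyz1 and the genes at the cluster borders were added after their values were seen. The members and lists were chosen with earlier results of these data known. Lists pool animals, so there was no test. IgG libraries were not analysed here.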

Additional observations from a re-analysis of the deposited data

How the results depend on the processing

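Marked clusters numbered 2 in each list under every alternative run, including clusters at 500 kb (6 clusters) and 2 Mb (4 clusters). Of 81 recomputed values, 72 lay within 1.5 times the reported one. The 81 include covered lengths that were 0 at every setting, so this count is not a measure of robustness. The number of members marked in WT alone was 2 without a window around the gene (Defb21 and Defb43, against 1.34% of all autosomal genes), 3 with 5 kb (Defb21, Defb29 and Defb19, against 1.68%), 2 with 10 kb (Defb21 and Defb19, against 1.81%), and 2 (Defb21 and Defb43) at the common floor of total signal (1.95%) and in the top 50% of each list (1.06%). Defb23 and Defb20 were marked in Utx-cKO alone under every alternative run. Without a window, Defb25 was in Utx-cKO alone and Defb36 in neither list. By promoter window, which was chosen after seeing the data and leaves 29 members, the Utx-cKO list marked 4 and the WT list 3. With 50 kb on either side, peaks covered 68.6 kb of the chromosome 14 span in Utx-cKO and 52.35 kb in WT, which turns round the order of the lists. In Utx-cKO the wider span takes in the rest of the peak over Defb30 and Defb42 (to 63078300) and part of the next peak (from 63087151). In WT it takes in the peak over Gm35908 (63062751 to 63080300). The common floor assumes that the lists share a signal scale. No paired analysis was possible because each list pools its animals, and no replicate could be left out. Depth is unknown, so the absence of a peak could not be set against it.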

Other observations

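The Wfdc genes are a clustered family of secreted protease inhibitors with antimicrobial members. They had peaks at 14 of 18 genes in Utx-cKO (77.8%) and 13 of 18 in WT (72.2%), and several of them shared a peak. Of all autosomal protein-coding genes, 17.6% had one in Utx-cKO and 16.1% in WT. Among 1106 olfactory receptor genes, also clustered and short, the Utx-cKO list marked 53 (4.79%) and the WT list 47 (4.25%). Neither list marked any of the 9 cystatin genes. Of 49 keratin genes, the Utx-cKO list marked 11 (22.4%) and the WT list 8 (16.3%).

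Toward and over Gata4, a heart and endoderm factor, the Utx-cKO list held 3 further peaks past the chromosome 14 cluster that overlapped no WT peak. The nearest (63087151 to 63102900) began 38.5 kb from Defb42 at percentile 28.6 of total signal. The next (63192551 to 63221900), over the near part of Gata4 (63198914 to 63271712), began 144 kb away at percentile 73.6. The last lay over most of Gata4 and began 175 kb away at percentile 99.9. No replicate check of these peaks was possible. The share of all Utx-cKO peaks that overlap no WT peak is not given here, so their count has no background beside it. The Utx-cKO list is also the longer one, with 8914 peaks against 7826 in WT.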
